A study of Mus musculus with 7 samples.

Results

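The integrated stress response genes were read in cultured mouse mammary glands as a set of 10 genes: the transcription factors Atf4, Atf3, Atf5 and Ddit3, the feedback and redox genes Trib3, Chac1 and Sesn2, and the amino acid synthesis genes Asns, Psat1 and Phgdh. The members are a list of named genes. Probes on the array were matched to them through RefSeq, which gave 10 probes for 9 of the 10 genes, out of 13971 genes named on the array; Trib3 had no matched probe and no value is given for it. Each gene is given by its brightest probe, and Phgdh also by a dimmer second probe. In every comparison all 9 measured genes were called good by the scanner software on at least 1 of the 2 arrays, which was the condition for a gene to be counted.

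Each of the 7 arrays held RNA of one group of glands, so no group has a replicate array and no difference given here has a replicate check. The glands came from αERKO mice, titled as ESR1 knockout, from mice titled as ESR2 knockout, from wild-type C57 mice (WT) and from BALB/c mice, all cultured for 24 days except one WT group cultured for 10 days. The knockout lines were made on a C57BL6/129SV background, and C57 mice served as their WT controls, so genotype and strain background cannot be told apart. One WT group at 24 days had received the carcinogen 7,12-dimethylbenz(a)anthracene (DMBA), at 2 µg/ml on Day 3 for 24 h by the culture protocol, and the WT groups at 10 and at 24 days are titled as having none. For the glands titled as knockouts the study describes DMBA but the titles do not name it, and for the BALB/c glands DMBA and the dose of vitamin D5 in the treated group are not given in the sources used here. The mice were 4 weeks old. By the study, the WT, αERKO and βERKO mice of the arrays had been primed for 5 days with progesterone at 1 mg and EGF at 25 ng. The sample descriptions, the same for all groups, also give 1 µg estrogen with 1 mg progesterone for 9 days, and which priming the other 4 groups had is not given in the sources used here. Culture comprised a growth phase of 10 days and a regression phase of 14 days in medium. RNA of 5 mice was pooled for each of the WT, αERKO and βERKO arrays. The WT glands with DMBA and the βERKO glands held DMBA-induced lesions. The αERKO glands had none. One passage of the study's methods says that no αERKO samples could be harvested, while others count αERKO glands among those profiled.

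The integrated stress response is a shared branch of several stress pathways. Kinases that sense unfolded protein, lack of amino acids, haem shortage or double-stranded RNA phosphorylate the translation factor eIF2α, which lowers protein synthesis in general but raises translation of the Atf4 messenger. ATF4 then induces other transcription factors, amino acid transporters and synthetases, aminoacyl-tRNA synthetases and feedback inhibitors. In the mammary gland the secretory epithelium makes large amounts of protein and lipid, and amino acid carriers and enzymes under ATF4 control serve that supply. Because ATF4 itself is regulated largely by translation, the level of its messenger shows only part of the response.

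A value below called a level is the log2 of a probe's intensity over the median of all gene probes on its array. Levels of different probes are not compared, since probes differ in brightness. As a scale of technical spread, 2 probes of the same accession gave log2 ratios whose SD lay between 0.23 and 0.61 over the 7 comparisons, and between 0.16 and 0.30 for the brightest probes. This spread is within arrays and holds nothing of the difference between glands or mice.

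The arrays had median intensities between 39.1 and 53.0, and the scanner software called between 68.4% and 74.2% of gene probes good. All 8 luminal epithelial markers (such as Krt8, Krt18 and Epcam) were good on all 7 arrays. The αERKO array stood apart in its cell type markers. Its 9 skeletal muscle genes summed to 1760 multiples of the array median, against 40.8 on the array titled ESR2 knockout and between 4.98 and 8.93 on the others. The Esr2 probe was good on the array titled ESR2 knockout, at 0.87, and not good on the WT array with DMBA, which goes against that title unless the probe lies outside the deleted part of the gene, and that is not known. The array is called the array labelled βERKO here. The Esr1 probe was not good on the αERKO array, but it was also not good on 4 other arrays, so it says little about the label.

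Ddit3, which encodes CHOP, the factor that links prolonged stress to cell death, spanned a wide range. Its level was 4.05 in αERKO, 6.16 on the array labelled βERKO, 5.22 in WT with DMBA, 6.27 in WT at 10 days, 7.14 in WT at 24 days without DMBA, 5.88 in BALB/c and 5.62 in BALB/c with vitamin D5. The highest and lowest arrays were 8.52-fold apart, and all 7 arrays were good. Only the WT array at 10 days and the array labelled βERKO were closer to each other than the smallest probe SD of 0.23. Since these are whole glands, fewer cells of a type and less RNA per cell cannot be told apart, here or in any value that follows.

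Atf3, a stress-induced repressor and activator of the same bZIP family, was a dim probe. Its level was not good on the αERKO array, where it read -0.43, and it was 2.01 on the array labelled βERKO, 1.08 in WT with DMBA, 1.21 in WT at 10 days, 2.39 in WT at 24 days without DMBA, 0.28 in BALB/c and 0.53 in BALB/c with vitamin D5. Atf3 and Ddit3 shared their lowest array, αERKO, and their highest, WT at 24 days without DMBA. For Atf3 the WT array with DMBA and the WT array at 10 days could not be separated at the probe SD.

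Atf4, the central factor of the response, was among the bright probes and varied less. Its level was 7.78 in αERKO, 8.60 on the array labelled βERKO, 7.94 in WT with DMBA, 8.64 in WT at 10 days, 9.08 in WT at 24 days without DMBA, 8.64 in BALB/c and 8.54 in BALB/c with vitamin D5. The whole range was 2.46-fold. The 4 arrays between 8.54 and 8.64 could not be separated, nor could the 2 lowest arrays, αERKO and WT with DMBA.

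Atf5, a relative of Atf4 that takes part in the mitochondrial stress response, followed the same order at its ends. It read 4.34 in αERKO, 5.53 on the array labelled βERKO, 5.13 in WT with DMBA, 5.57 in WT at 10 days, 6.09 in WT at 24 days without DMBA, 5.24 in BALB/c and 5.17 in BALB/c with vitamin D5. The αERKO array lay below and the WT array at 24 days without DMBA above the other 5 arrays by more than the smallest probe SD. The levels of all 4 transcription factors were lowest in αERKO and highest in WT at 24 days without DMBA. For Atf4, however, the αERKO array could not be separated from WT with DMBA, and the Atf3 spot was not good in αERKO.

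Chac1, an enzyme that breaks down glutathione and is a late target of ATF4 and CHOP, had another order. Its level was 0.51 in αERKO, 3.00 on the array labelled βERKO, 0.28 in WT with DMBA, 1.87 in WT at 10 days, 1.73 in WT at 24 days without DMBA, 1.28 in BALB/c and 1.37 in BALB/c with vitamin D5. The array labelled βERKO stood above the next array by 1.13 on the log2 scale, and the lowest array was WT with DMBA.

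Sesn2, a sestrin that restrains the growth kinase mTORC1 when leucine is short, was dim and read -0.46 in αERKO, 1.27 on the array labelled βERKO, 0.82 in WT with DMBA, 0.99 in WT at 10 days, 0.94 in WT at 24 days without DMBA, 0.20 in BALB/c and 0.45 in BALB/c with vitamin D5. The 3 WT arrays lay together, with neighbours 0.12 and 0.06 apart. Sesn2 was called good on all 7 arrays.

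Of the 3 genes of amino acid synthesis, Asns and Psat1 had narrower ranges than the 4 transcription factors, at 1.96-fold and 1.69-fold, and the range of Phgdh was 2.45-fold with its brighter probe and 3.15-fold with its second, on either side of the 2.46-fold of Atf4. Asns, which makes asparagine, lay between 4.34 in WT with DMBA and 5.30 in WT at 10 days, with the 5 arrays other than αERKO and WT with DMBA between 5.04 and 5.30. Psat1, the second enzyme of serine synthesis, lay between 5.01 in WT with DMBA and 5.77 in BALB/c with vitamin D5.

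Phgdh, the first enzyme of serine synthesis, ran opposite to most of the set. Its level was 3.00 in αERKO, 1.71 on the array labelled βERKO, 2.65 in WT with DMBA, 2.49 in WT at 10 days, 2.40 in WT at 24 days without DMBA, 2.15 in BALB/c and 2.48 in BALB/c with vitamin D5, the last of which was not called good. It was highest in αERKO, where 5 of the other 8 genes were lowest. The second Phgdh probe was also highest on the αERKO array, at 1.49, and lowest on the array labelled βERKO, at -0.16.

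**Figure D1:**
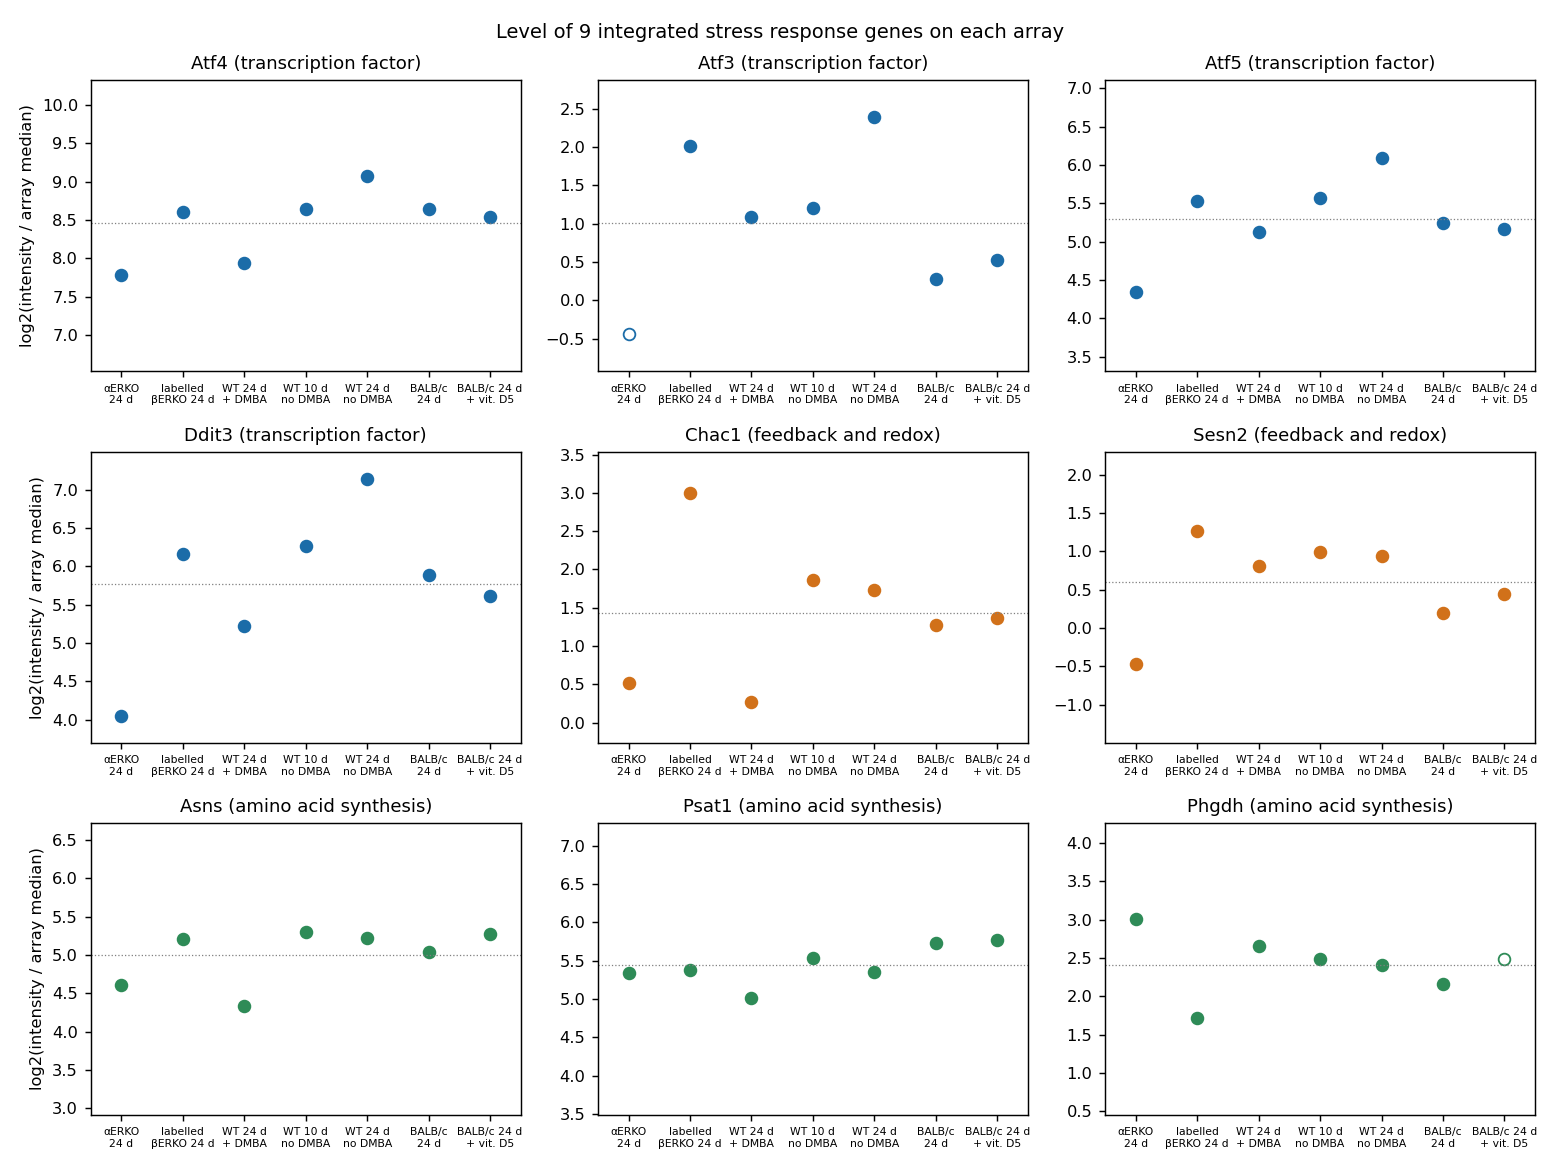
Level of each of the 9 measured genes (log2 of intensity over the array median, the vertical axes spanning the same number of log2 units) on the 7 arrays, with 1 point per array, no replicates, and open points where the spot was not called good; the dotted line is the mean over arrays. The 4 transcription factors are lowest on the αERKO array and highest on the WT array at 24 days without DMBA. For Atf4 the αERKO array is not separable from the WT array with DMBA, and for Atf3 its spot was not good. Phgdh is highest on the αERKO array at 3.00.

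Over the 9 genes, the αERKO array held the lowest value for 5 and the WT array with DMBA for 3. For Atf4, Chac1, Asns and Psat1 these arrays were the lowest pair and differed by less than their probe SD of 0.61. The WT array at 24 days without DMBA held the highest value for 4, and on the WT array at 10 days all 9 genes were above their own mean over the arrays. Among the 9338 genes good on all 7 arrays, the median range was 1.05 on the log2 scale and 52.9% had a range over 2-fold. Of the 7 members good on all 7 arrays, 5 had such a range. A range larger than that of Ddit3 was held by 6.15% of these genes and one larger than that of Chac1 by 8.56%, while 37.4% exceeded Atf4, 55.3% Asns and 70.2% Psat1.

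The likeness of profiles over the 7 arrays was measured as the root mean square (RMS) difference of centred log2 levels. The closest pairs of members were Atf4 with Asns and Atf4 with Atf5, both at 0.22, and Asns with Psat1 at 0.24. Phgdh was farthest from the mean of the other members, at 0.81, and Atf5 closest, at 0.17. The mean profile was taken over the 7 members good on all arrays, which leaves out Atf3 and Phgdh. The 4 genes outside the set closest to it were Naa80 at 0.09, Nip7 and Spopl at 0.10, and Dynll2 at 0.11, among 3062 genes good on all arrays and at least as variable, whose median difference was 0.75. All these values rest on 7 arrays that also differ in tissue makeup.

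ATF4 binds DNA with a C/EBP partner at a composite element whose core can be written TGATGNAA, or TTNCATCA on the other strand, where N is any base. This core was searched for on both strands in RefSeq promoter windows of 300 bases (250 before and 50 after the annotated start, GRCm38.p6). It was found for 4 of the 10 genes (Asns, Atf3, Chac1 and Trib3), against 4.51% of 27025 genes with a window. A match is a description of the letters and not evidence of binding, and a window without one says only that these letters are not in it. The 250 bases before the start are printed for the 3 of them with a match before it and a value on the arrays, in gene orientation from 5′ to 3′, with the match in capitals.
Asns (chr6:7693210-7693459, strand -): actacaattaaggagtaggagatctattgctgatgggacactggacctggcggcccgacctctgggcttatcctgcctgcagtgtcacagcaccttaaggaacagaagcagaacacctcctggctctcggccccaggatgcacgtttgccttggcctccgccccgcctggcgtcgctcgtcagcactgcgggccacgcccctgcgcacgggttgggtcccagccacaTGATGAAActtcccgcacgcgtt
Atf3 (chr1:191183334-191183583, strand -): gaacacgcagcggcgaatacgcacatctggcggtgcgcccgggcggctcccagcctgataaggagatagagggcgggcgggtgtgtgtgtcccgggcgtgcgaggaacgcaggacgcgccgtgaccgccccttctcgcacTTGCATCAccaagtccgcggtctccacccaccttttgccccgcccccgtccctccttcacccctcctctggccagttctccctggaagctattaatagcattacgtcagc
Chac1 (chr2:119350992-119351241, strand +): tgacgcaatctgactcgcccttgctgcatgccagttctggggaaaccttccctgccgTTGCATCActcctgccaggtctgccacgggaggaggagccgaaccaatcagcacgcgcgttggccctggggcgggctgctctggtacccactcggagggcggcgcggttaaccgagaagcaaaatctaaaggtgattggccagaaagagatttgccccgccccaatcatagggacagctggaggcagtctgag
The first base of the match lay 23 bases before the start in Asns, 110 in Atf3 and 193 in Chac1. Atf3 and Chac1 carry the same 8 letters, TTGCATCA. The match of Trib3 lay 14 bases after its start. Atf4, Atf5, Ddit3, Sesn2, Psat1 and Phgdh had none in their windows.

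WT glands at 24 days with DMBA were compared with WT glands at 24 days without it. The priming of the mice without DMBA is not given in the sources used here. The carcinogen and the priming therefore cannot be told apart in this comparison. Every transcription factor was lower with DMBA. Ddit3 was 3.79-fold lower (5.22 against 7.14), Atf3 2.48-fold lower (1.08 against 2.39) and Atf4 2.20-fold lower (7.94 against 9.08). Chac1 was 2.73-fold lower, at 0.28 against 1.73. Atf5 and Asns were lower by less than 2-fold, with log2 ratios of -0.95 and -0.88.

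Thus 4 of 9 genes were over 2-fold lower with DMBA and 0 higher, against 7.79% of 12150 genes measured being lower and 11.6% higher. The median log2 ratio of the 9 genes was -0.95, where all genes had -0.15. Negative log2 ratios were read for 8 of the 9, as for 60.3% of all genes. Sesn2 at -0.12 was within the probe SD of 0.31 of this comparison, and so was Phgdh at 0.25, the only positive one. The second Phgdh probe read 0.36, beyond that SD. After cyclic loess, higher genes made up 70.6% of all those over 2-fold, against 59.8% with the array median. Of the 4 genes, Ddit3 kept its 2-fold difference under every alternative tried, while Atf4 was under 2-fold after quantile normalization and after cyclic loess (-0.70), and Atf3 and Chac1 after normexp background correction (-0.93 and -0.90).

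Other genes under ATF4 control were read from lists grouped by role. Of 12 measured amino acid transporters, 6 were over 2-fold lower with DMBA and 1 higher, with a median of -1.14. The lowest were the neutral amino acid carrier Slc1a4 (-2.63), the glycine carrier Slc6a9 (-2.28), the glutamate carrier Slc1a1 (-1.66) and Slc3a2 (-1.65), the shared heavy chain of several exchangers. Slc1a5, a glutamine carrier, was higher by 1.85. Among 16 stress and growth targets, 4 were lower and 1 higher. The lower ones were Vegfa (-2.11), a vessel growth factor, Ppp1r15a (-2.10), the phosphatase subunit GADD34 that reverses eIF2α phosphorylation, Nupr1 (-1.68) and the autophagy receptor Sqstm1 (-1.05), and the higher one was the lipoprotein receptor Vldlr (1.26).

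All 16 tRNA synthetases read lower with DMBA, with a median of -0.50, but only Nars (-1.06) and, at the edge of the threshold, Sars passed 2-fold. The 16 serine, one-carbon and proline genes had a median of -0.15 beside -0.15 for all genes, with 0 over 2-fold lower and 1 higher, Bcat1 at 1.46, whose spot was good on only 1 of the 2 arrays. These 4 lists, each gene once, are counted together here and below as ATF4 targets outside the set. The tRNA synthetases among them were listed as a family and not selected as ATF4 targets. Of these 59 genes 12 were over 2-fold lower and 3 higher, with a median of -0.50. By contrast, 21 endoplasmic reticulum chaperones and other targets of ATF6 and XBP1, the other arms of the unfolded protein response, had a median of -0.10 with 1 gene lower, Dnajb9 (-1.18). No kinase of eIF2α or subunit of eIF2 or eIF2B was over 2-fold in either direction among 10 measured. These 10 had a median of -0.56, below the -0.15 of all genes, and 8 of them were negative.

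The cell type markers differed between these 2 arrays too. Luminal markers summed to 575 multiples of the array median with DMBA and 1200 without, with 8 of 8 good on both arrays. Fibroblast markers summed to 203 with 6 of 6 good, against 12.4 with 4 of 6. Adipocyte markers summed to 1738 against 988, macrophage markers to 284 against 185, and endothelial markers to 32.0 against 6.60, with all 4 measured endothelial genes over 2-fold higher. Basal markers summed to 273 against 282, with 2 of 6 over 2-fold higher (Myh11 and Acta2) and 2 lower (Krt17 and Krt14). The part of these differences in the result was not tested.

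**Figure D2:**
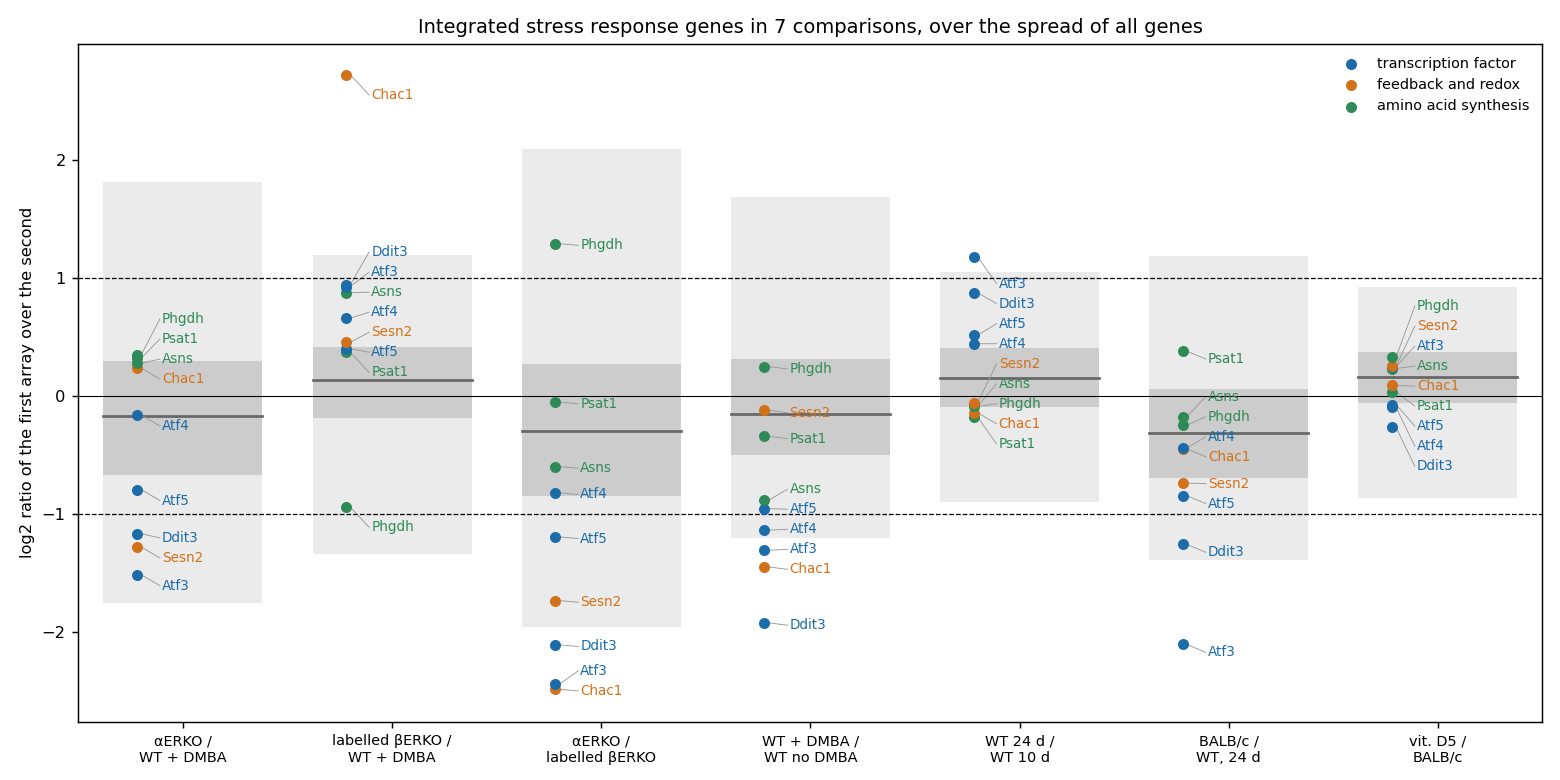
Log2 ratio of each measured member (points, coloured by role) in each of the 7 comparisons, with the first named array over the second, 1 array each. Light and dark grey boxes span the 5th to 95th and 25th to 75th percentiles of all genes measured, the grey line is their median and dashed lines mark 2-fold. With DMBA in WT, 8 of 9 members lie below 0 and Ddit3 is lowest at -1.92; with vitamin D5 all 9 lie between -0.27 and 0.33.

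The array labelled βERKO was compared with the WT array with DMBA, which is also 1 of the 2 arrays of the previous comparison, so both comparisons share that array's values. Chac1 was 6.61-fold higher, at 3.00 against 0.28, with a log2 ratio of 2.72 that became 1.89 after normexp background correction. The other members but Phgdh were higher by less than 2-fold. Ddit3 read 0.94 and Atf3 0.93 on the log2 scale, both just under the threshold, Asns read 0.88 and Atf4 0.66. Phgdh was lower by 1.92-fold with its brighter probe (log2 ratio -0.94), and its second probe read -1.45.

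Hence 1 of 9 genes was over 2-fold higher and 0 lower, where 6.62% of 12077 genes were higher and 7.29% lower. The median was 0.66 against 0.14 for all genes, and 8 of 9 members were positive against 62.3% of all genes. With the threshold at 1.5-fold, 5 members were higher and 1 lower, beside 15.6% of all genes higher and 12.5% lower at that threshold. With the array median, the log2 ratio of 8 of the 9 exceeded this comparison's probe SD of 0.38. Psat1 at 0.37 was the exception. Atf5 was within that SD after quantile normalization (0.20), with the 75th percentile (0.35) and after cyclic loess (0.16), as was Atf4 after cyclic loess (0.29). After cyclic loess the median of the set was 0.41, against 0.00 for all genes.

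Of 58 ATF4 targets outside the set 9 were over 2-fold higher and 4 lower, with a median of 0.31. Of the 16 stress and growth targets among them 6 were higher and 0 lower, with a median of 0.74, and of the 16 serine, one-carbon and proline genes 0 were higher and 1 lower. Gdf15, a secreted stress hormone of the TGF-β family, was highest at 3.17. Its level was -0.86 in αERKO, 7.03 on the array labelled βERKO, 3.86 in WT with DMBA, and between 4.45 and 5.12 on the other 4 arrays. Gadd45a, a growth arrest gene also induced by p53, read 1.73, Ppp1r15a 1.52 and Vegfa 1.35. Among transporters, 3 of 11 were higher (Slc6a9 at 2.04, Slc1a1 at 1.51 and Slc1a4 at 1.31) and 3 lower. The lower ones were Slc1a5 (-1.81), Slc7a1 (-1.61), a carrier of cationic amino acids, and Slc7a5. The Slc7a5 level was -2.81 on the array labelled βERKO, where its spot was not good, and 0.60 in WT with DMBA. Of 16 tRNA synthetases 0 passed 2-fold in either direction, with a median of 0.33.

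In the list of the mitochondrial stress response, the chaperonin Hspe1 was lower by 5.31 on the log2 scale on the array labelled βERKO. Its level was 2.23 there and 1.60 on the αERKO array, against values between 7.55 and 8.02 on the other 5 arrays. For the arrays titled as knockouts, genotype and strain background cannot be told apart. The list as a whole had a median of 0.38 on the array labelled βERKO against WT with DMBA, with 8 of 10 positive. In it the chaperonin Hspd1 read 5.00 against 4.76. Luminal markers summed to 857 multiples on the array labelled βERKO against 575 in WT with DMBA, fibroblast markers to 65.0 against 203, and macrophage markers to 145 against 284. Of the 3 macrophage markers with a probe, 2 were lower and 1 higher, Cd14 at 0.41. Adipocyte markers summed to 1551 against 1738, but 5 of 7 were lower, with a median of -0.67. Cfd (-1.22) and Retn (-1.84) were over 2-fold lower, and the 2 higher ones were under 2-fold. Endothelial markers summed to 11.8 against 32.0. Basal markers summed to 333 against 273, with 2 of 6 over 2-fold higher (Krt17 and Krt14). The 1 lower was Myh11, whose spot was not good on the array labelled βERKO. Muscle markers were at 40.8 with 5 of 9 good against 8.93 with 3 of 9 good. The part of these differences in the result was not tested.

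The αERKO array was compared with the same WT array with DMBA. Atf3 was 2.86-fold lower with array-median scaling, an imprecise value because its spot was not good on the αERKO array. Its log2 ratio of -1.52 became -1.39 with scaling to the 75th percentile, -1.34 after cyclic loess and -0.80 after normexp background correction. Sesn2 was 2.43-fold lower (-0.46 against 0.82) and Ddit3 2.25-fold lower (4.05 against 5.22). The 3 amino acid synthesis genes and Chac1 had positive log2 ratios between 0.24 and 0.35, within the probe SD of 0.61 of this comparison. Atf4 at -0.16 also lay within it.

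So 3 of 9 genes were over 2-fold lower and 0 higher, beside 15.2% of 12189 genes lower and 10.2% higher. The median of the 9 genes, -0.16, was next to that of all genes, -0.17. All 4 transcription factors had negative log2 ratios, with a median of -0.98. The 3 synthesis genes had a median of 0.32, and of the 2 feedback and redox genes 1 was positive and 1 negative. After normexp background correction Atf3 and Sesn2 (-0.64) were under 2-fold, and Ddit3 alone was over it.

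The tRNA synthetases, which charge amino acids onto their tRNAs, were lower on the αERKO array in 8 of 16 cases beyond 2-fold and in 16 of 16 in sign. The largest differences were in Vars (-1.76), Sars (-1.59), Yars (-1.51) and Tars (-1.27). Transporters were lower in 4 of 12 cases and higher in 1, with Slc3a2 at -2.02, Slc7a5, its light chain for leucine, at -1.69 and Slc1a5 at 1.69. Among stress and growth targets 5 of 16 were lower, with Gdf15 at -4.72, Cebpb, a partner factor of ATF4 and CHOP, at -2.14, Ddit4 at -1.34 and Sqstm1 at -1.20, and 1 was higher, Vegfa at 1.16. Chaperones under ATF6 and XBP1 were lower in 5 of 21 cases, with Sdf2l1 at -1.55, Canx at -1.52, Pdia4 at -1.06 and Hspa5 at -1.05. In the serine and one-carbon list, Gpt2, an alanine transaminase, was higher by 2.33 and Shmt2 lower at -1.03.

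In all, 19 of 59 ATF4 targets outside the set were over 2-fold lower and 3 higher, with a median of -0.70. On this array the 9 muscle markers were all good and summed to 1760 multiples against 8.93 in WT with DMBA. Adipocyte markers summed to 2936 against 1738, fibroblast markers to 401 against 203, and lymphocyte markers to 56.2 against 13.1. Macrophage markers summed to 61.9 against 284, with all 3 over 2-fold lower. Endothelial markers summed to 32.6 against 32.0, with 1 of 4 over 2-fold higher (Kdr) and 2 lower (Pecam1 and Emcn). Luminal markers summed to 448 against 575, with a median log2 ratio of -0.85 and 3 of 8 over 2-fold lower (Elf5, Krt8 and Cldn3). Basal markers summed to 107 against 273. The part of these differences in the result was not tested.

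**Figure D3:**
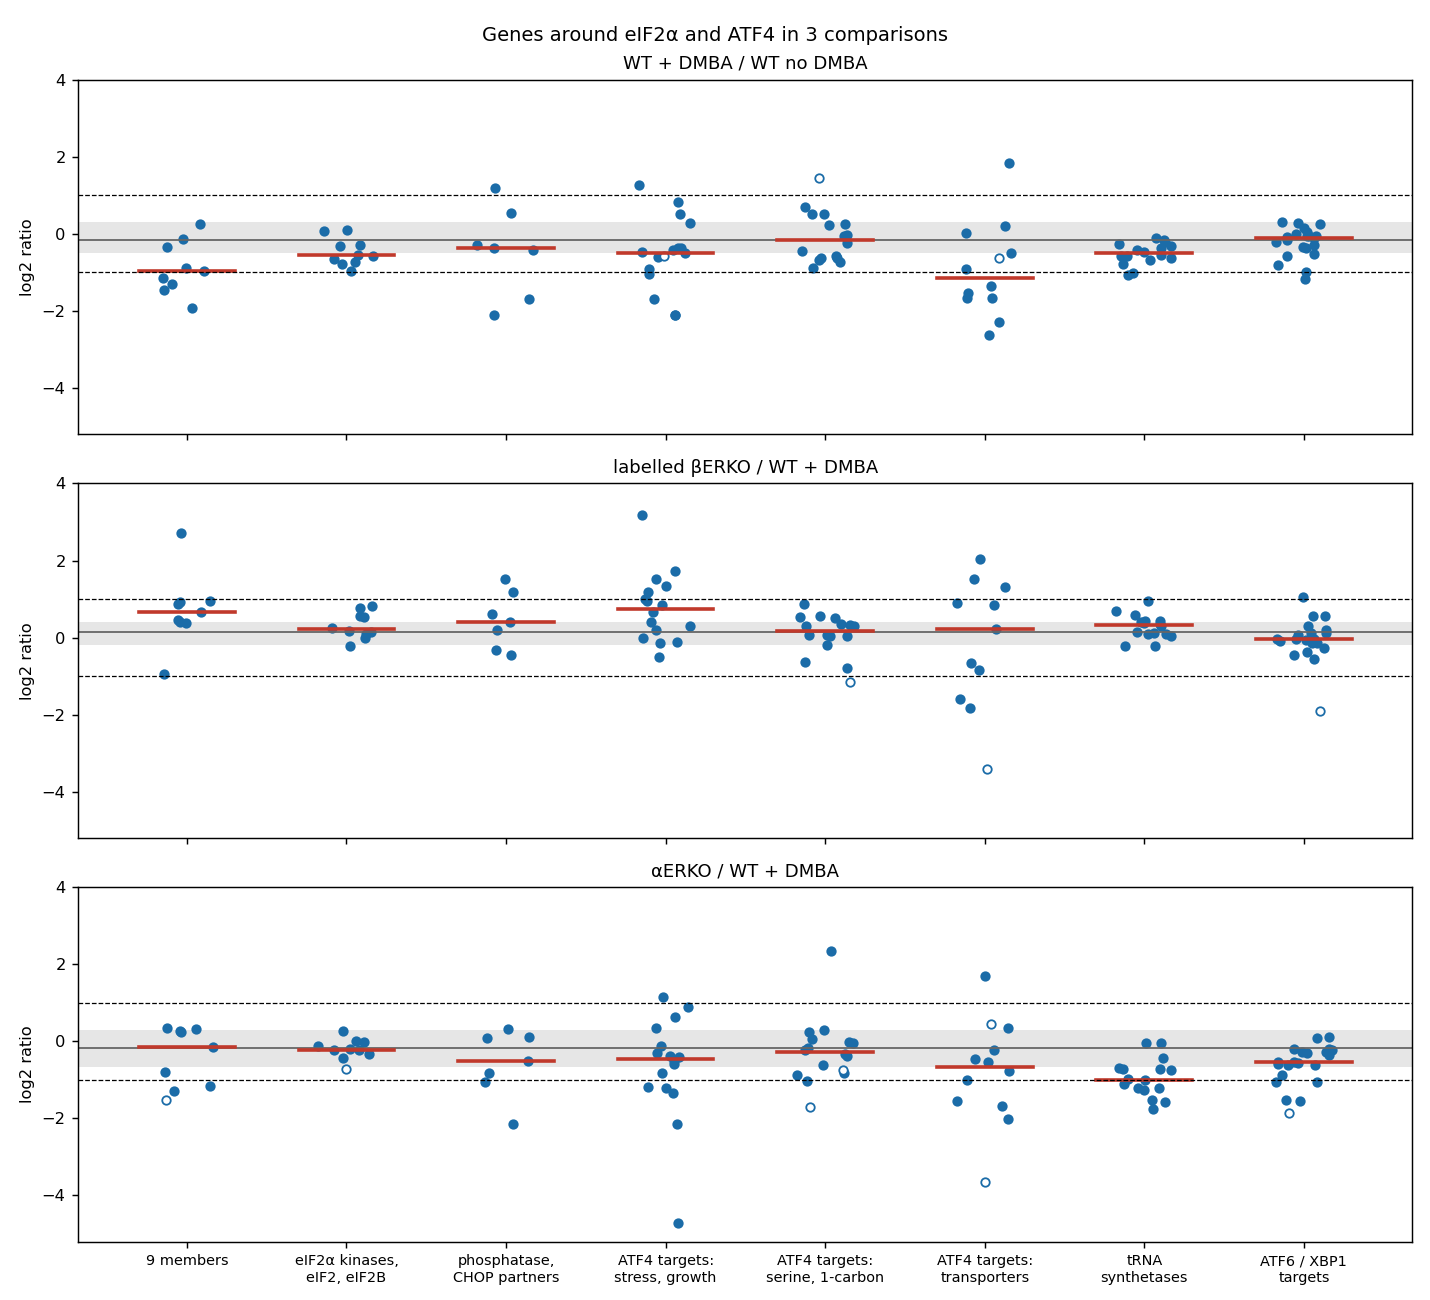
Log2 ratios of the 9 members and of 7 lists of genes around eIF2α and ATF4 in 3 comparisons that share the WT array with DMBA (each point a gene, open where it was good on only 1 of the 2 arrays, red bars the list medians, the grey band and line the 25th to 75th percentiles and median of all genes, dashed lines 2-fold). Genes that 2 lists hold, such as Ppp1r15a, are drawn in both. Transporters have a median of -1.14 with DMBA in WT, and 8 of 16 tRNA synthetases lie below the lower dashed line in αERKO against WT with DMBA.

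The αERKO array was also set directly against the array labelled βERKO, with the reservation that the Esr2 probe goes against the latter's title. Chac1 was 5.61-fold lower on the αERKO array, Atf3 5.44-fold lower, Ddit3 4.32-fold lower, Sesn2 3.33-fold lower and Atf5 2.29-fold lower. The Atf3 value, given with array-median scaling, is imprecise because its spot was not good on the αERKO array. Phgdh was 2.45-fold higher with its brighter probe and higher by 1.66 on the log2 scale with its second. Atf4 at -0.82 and Asns at -0.60 were under 2-fold.

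That made 5 of 9 genes over 2-fold lower and 1 higher, beside 20.2% of 12006 genes lower and 11.8% higher. The median was -1.19 against -0.30 for all genes. Among all genes over 2-fold, 36.8% were higher, which became 47.4% with scaling to the 75th percentile and 50.6% with cyclic loess. The members' median stayed between 0.75 and 0.89 below that of all genes under these scalings and quantile normalization. Atf5 was under 2-fold after quantile normalization and cyclic loess (-0.78), and Sesn2 (-0.88) and Phgdh (0.99) after normexp background correction, which also left smaller log2 ratios for Atf3 (-1.39) and Chac1 (-1.79).

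Here 26 of 58 ATF4 targets outside the set were lower and 4 higher, with a median of -0.91. Gdf15 differed by -7.89, the largest value among the pathway genes over the 7 comparisons, and was called good on both arrays. Its level in αERKO was dim, at -0.86, so the size of this difference and of that against WT with DMBA is imprecise. Among transporters 6 of 12 were lower, with Slc3a2 at -2.91, Slc6a9 at -2.58, Slc1a4 at -2.30 and Slc1a1 at -1.97, and 3 higher. The higher ones were Slc1a5 at 3.51, Slc38a3 at 1.20 and Slc7a5. The Slc7a5 level was -1.09 in αERKO and -2.81 on the array labelled βERKO, where its spot was not good. Of 16 tRNA synthetases, 9 were lower, with Sars at -2.18, Nars at -2.16, Rars at -1.67 and Yars at -1.65. In the serine, one-carbon and proline list 3 of 15 were lower, the mitochondrial one-carbon enzyme Mthfd2 at -1.75, Got2 at -1.34 and Shmt2 at -1.09, and 1 was higher, the alanine transaminase Gpt2 at 2.53. Since the muscle, adipocyte, luminal and fibroblast marker sums given above for both arrays differ as well, and their part in the result was not tested, the genotype and the tissue makeup cannot be told apart here.

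The pair of WT arrays without DMBA addresses time in culture, the end of the growth phase against the end of regression. Atf3 was 2.26-fold higher at 24 days than at 10 days (2.39 against 1.21), and Ddit3 was higher by 1.83-fold (7.14 against 6.27). Atf5 at 0.52 and Atf4 at 0.44 were above the probe SD of 0.23. With the array median the other 5 members were between -0.18 and -0.06, all within it. Psat1 was beyond it after quantile normalization (-0.32), with the 75th percentile (-0.24) and after cyclic loess (-0.32).

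Of the 9 genes 1 was over 2-fold higher and 0 lower, where 5.47% of 11887 genes were higher and 4.34% lower. The median of the set was -0.06, below the 0.16 of all genes, and the transcription factors alone had a median of 0.70. Atf3 was under 2-fold after normexp background correction (0.87). Outside the set, 2 of 59 ATF4 targets were over 2-fold higher and 0 lower. They included Slc1a5 (1.37), and Cebpa, an adipocyte factor listed among the CHOP partners, was higher by 1.23. Adipocyte markers summed to 295 multiples at 10 days and 988 at 24 days, basal markers to 730 and 282, and luminal markers to 1067 and 1200. Fibroblast markers summed to 17.8 and 12.4, macrophage markers to 169 and 185 and endothelial markers to 2.34 and 6.60. Their part in the result was not tested.

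BALB/c glands at 24 days were set against WT C57 glands at 24 days without DMBA, with the reservation that DMBA is not stated for the former. Atf3 was 4.31-fold lower in BALB/c (0.28 against 2.39) and Ddit3 2.39-fold lower (5.88 against 7.14). Atf5 at -0.85 and Sesn2 at -0.74 were under 2-fold but beyond the probe SD of 0.32. Psat1 was the only positive member, at 0.38.

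This gave 2 of 9 genes lower and 0 higher, beside 12.2% of 12113 genes lower and 6.22% higher. The median of the set, -0.45, lay near the -0.31 of all genes, and negative values for 8 of 9 members stood beside 71.8% of all genes. Among all genes over 2-fold 33.8% were higher, which became 52.3% with scaling to the 75th percentile and 45.2% with cyclic loess. After normexp background correction Atf3 read -1.41 in place of -2.11. After quantile normalization and cyclic loess Ddit3 was under 2-fold (-0.93 and -0.91) and Asns turned from -0.18 to 0.19 and 0.17. In the lists, Ppp1r15a (-1.15), Slc3a2 (-1.09), Sars (-1.29), Cars (-1.07), Canx (-1.38) and Hspa5 (-1.05) were lower. In the serine, one-carbon and proline list the aspartate transaminase Got1 was lower at -1.71 and the one-carbon enzymes Mthfd1l and Aldh1l2 were higher, both by 1.08. Of 59 ATF4 targets outside the set 8 were lower and 3 higher. Adipocyte markers summed to 257 in BALB/c against 988, basal markers to 595 against 282 and luminal markers to 911 against 1200. Fibroblast markers summed to 23.6 against 12.4 and macrophage markers to 119 against 185. Their part in the result was not tested.

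Vitamin D5, an analog of vitamin D, was compared with no addition in BALB/c glands at 24 days. The 9 genes lay between -0.27 for Ddit3 and 0.33 for Phgdh, and 0 of 9 passed 2-fold, where 4.41% of 12177 genes were higher and 4.39% lower. The median of the set was 0.09 and that of all genes 0.16. Of 58 ATF4 targets outside the set 2 were higher and 0 lower, among them Slc1a1 (1.02). Fibroblast markers summed to 42.4 with vitamin D5 against 23.6 without, with 3 of 6 over 2-fold higher. Adipocyte markers summed to 169 against 257, basal markers to 835 against 595 and luminal markers to 1075 against 911. Their part in the result was not tested. With a single array of each kind, a difference within the probe SD of 0.23 was not detectable. With the array median, Ddit3, Atf3, Sesn2, Asns and Phgdh exceeded it, though the Phgdh spot was not good with vitamin D5. Of these genes only Ddit3 still exceeded it after quantile normalization and with the 75th percentile, at -0.39 in both settings. Atf5 (-0.26) exceeded it after quantile normalization.

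**Figure D4:**
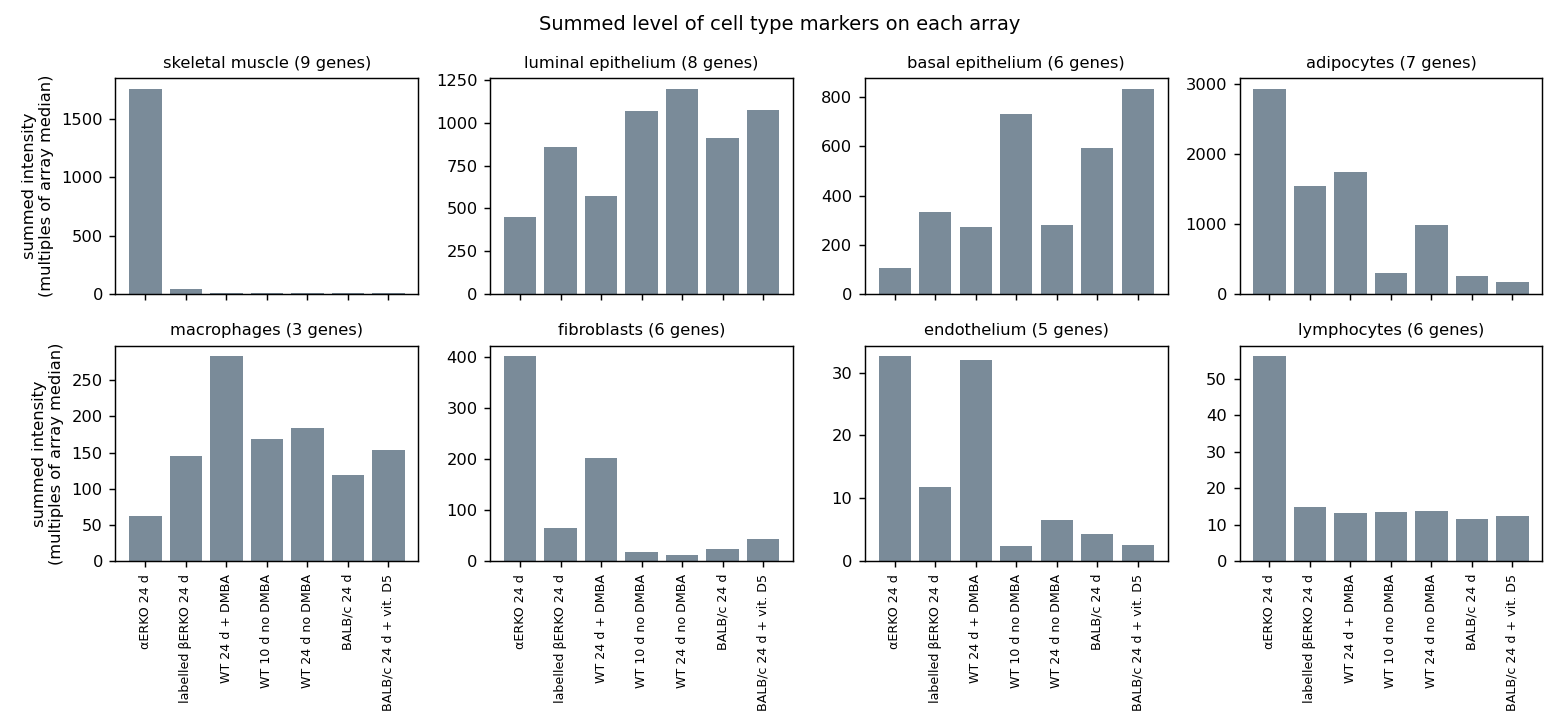
Summed intensity of the markers of 8 cell types on each array, in multiples of the array median (bars start at 0, 1 array per bar, no error bars, and each panel has its own scale). Muscle markers reach 1760 on the αERKO array, and luminal markers are lowest on the αERKO array and the WT array with DMBA, at 448 and 575.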

How the data were processed

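RNA was hybridized by the authors to 7 CodeLink Mouse Whole Genome arrays (1-colour), scanned, and quantified with CodeLink Expression Analysis software. The deposited intensity had the local background subtracted from the spot's signal and came with a quality call, and the authors also deposited a normalized intensity, used here as an alternative only. The deposited series table does not name its probes and was not used. Background is high beside the median probe, at 80 to 83 units against 39.1 to 53.0, so dim probes such as those of Atf3 and Sesn2 are imprecise.

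Each of the 34967 gene probes was scaled to the median of its array, following the study's methods. Values not above 0 were set to the lowest positive value before log2 was taken. RefSeq's mouse gene table (GRCm38.p6, used for names and promoter sequences) named 14763 of the 15553 probes that carry a RefSeq accession, which gave 13971 symbols. A gene is given by its probe with the highest mean log2 value. Genes good on at least 1 of the 2 arrays were compared, at the study's threshold of 2-fold. A ratio against a spot near background is imprecise. With 1 array per group there is no test and no p-value, and the number of arrays limits the precision. The counting was tested on simulated data with less noise than the probe SD, so that test says nothing of false calls on these arrays.

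Every member is named, together with up to 4 genes each way per pathway list and comparison that were over 2-fold and good on both arrays, the 5 genes of nearest profile, Esr1 and Esr2. Of the 5, 1 is not reported here. The members, lists and markers were chosen with earlier results of these data known. A few further values of named genes were added after they were seen. They are levels of Gdf15, Hspe1 and Hspd1, and Bcat1 and Slc7a5 where good on only 1 of the 2 arrays compared. Alternatives were quantile normalization, the 75th percentile, cyclic loess, normexp with an offset of 50, other filters, floors, thresholds and probe choices. Python 3.11.15, pandas 2.3.3, numpy 2.4.6, R 4.3.3 and limma 3.58.1 were used.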

Additional observations from a re-analysis of the deposited data

How the results depend on the processing

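No paired analysis was possible because each group has 1 array, and for the same reason no array could be left out of a group. Of 84 counts of members over the threshold under alternatives, 70 were within 1.5 times the main count, and of 627 log2 ratios of single members 605 moved by less than the probe SD and 0 changed sign while over 2-fold. All 70 medians moved by less than the probe SD, though those near 0 could change sign: αERKO against WT read 0.04 with genes good on both arrays, 24 against 10 days 0.03 with the mean of a gene's probes, and vitamin D5 -0.04 with the 75th percentile. For αERKO against WT with DMBA, where 3 members were over 2-fold, 1 was after normexp correction and 0 at 3-fold. For the array labelled βERKO against WT with DMBA the count of 1 became 2 with cyclic loess, 2 with the mean of a gene's probes and 6 at 1.5-fold. For DMBA in WT the count of 4 became 2 after normexp and 1 at 3-fold. For 24 against 10 days the count of 1 became 0 after normexp, 0 at 3-fold and 2 at 1.5-fold. For BALB/c against WT the count of 2 became 1 after quantile normalization, 1 with cyclic loess, 1 at 3-fold and 4 at 1.5-fold.

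The median of all genes moved by over 0.1 with another scaling in 6 of the 7 comparisons, by up to 0.27 for αERKO against the array labelled βERKO with cyclic loess and 0.22 for BALB/c against WT. Relative to it, the members' median stayed between 0.68 and 0.81 lower for DMBA in WT and between 0.40 and 0.52 higher for the array labelled βERKO. For αERKO against WT it lay between 0.18 below and 0.01 above. The 1 array per group limits every difference. Atf3, Sesn2 and Chac1 also have dim probes, for which normexp correction shrinks ratios by its construction.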
